A study of Mus musculus with 24 samples.

Results

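Endoderm regulators and their targets were followed across the RNA-seq libraries of the study: the GATA factors Gata4 and Gata6, the forkhead factors Foxa1 and Foxa2, the nuclear receptor Hnf4a, the secreted proteins Afp and Ttr, and the adaptor Dab2. The 8 genes were picked by name, with earlier results of these data known, from the 51912 genes counted, and all 8 were found. The study inserted DNA fragments that carry transcription factor motifs into mouse embryonic stem cells (ESCs) and measured CpG methylation around them, and the RNA-seq libraries show which factors each cell type transcribes. Here the endoderm genes are set beside genes of the floor plate, another tissue in which FOXA factors are known to act.

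The 9 libraries fell into 3 groups of 3. ESCs were wild type, of the mixed strain C57BL/6 X 129S5. Neuronal progenitors (NPs) were derived from wild-type ESCs of that strain, as cell aggregates that received retinoic acid late in the culture, so an NP library is a bulk culture and not a sorted cell type. TET TKO ESCs lack TET1, TET2 and TET3, the enzymes that oxidize 5-methylcytosine, and came from a line of the strain C57BL/6 X 129/sv, so in the comparison with ESCs the knockout cannot be told apart from the strain and the line. No differentiated TET TKO culture is among the libraries used here. In bulk libraries, fewer cells of a type and less RNA per cell cannot be told apart. The labels do not say whether replicates were separate cultures, while the paper calls them biological replicates, so the p-values measure the spread between these libraries only. ESC replicates 1 and 2 were the closest pair, with a chi-square per degree of freedom of 2.25, where 1 is sampling noise only. The other ESC pairs were at 12.6 and 17.7, and NP pairs at 36 to 61. TET TKO pairs were at 96.9 to 174, in libraries of greater depth, so this measure is not like for like between the groups. Whether the 2 close libraries share a culture was not tested.

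GATA6 and GATA4 are zinc finger factors that direct cells of the early embryo to the primitive endoderm, and both later act in heart and gut. FOXA1 and FOXA2 are forkhead factors that can bind their motif in closed chromatin. They open enhancers of endoderm and liver, and FOXA2 is also made in the notochord and the floor plate, the ventral midline of the neural tube that secretes Sonic hedgehog (Shh). HNF4A drives liver, gut and visceral endoderm genes, Afp and Ttr are secreted products of visceral endoderm and liver, with Ttr also made by the choroid plexus, and Dab2 is an endocytic adaptor used as a marker of extraembryonic endoderm.

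Regions before a RefSeq start site of Foxa1 and Foxa2 are shown because those genes had the highest levels of the 8 in NPs. The set of RefSeq (GRCm38.p6) promoters used here held start sites for 5 of the 8 members, 9 sites in all. It had no entry for Gata4, Gata6 or Ttr, which says nothing of RefSeq as a whole. Each region runs from 250 to 51 bases before the start, and the 2 regions shown lie outside the exons annotated for their own gene. The Foxa1 region is chr12:57546162-57546361 on the minus strand. In the gene models used for the counts Foxa1 spans 57540628 to 57546916. The Foxa1 region therefore lies inside that span, upstream of the RefSeq start only. The Foxa2 region is chr2:148047020-148047219 on the minus strand, before the most upstream of its 3 start sites. Capitals mark the forkhead letters found, both strands searched.
Foxa1: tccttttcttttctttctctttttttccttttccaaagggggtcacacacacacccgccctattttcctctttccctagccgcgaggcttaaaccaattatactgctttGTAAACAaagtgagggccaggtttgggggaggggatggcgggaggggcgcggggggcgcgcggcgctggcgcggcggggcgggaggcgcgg
Foxa2: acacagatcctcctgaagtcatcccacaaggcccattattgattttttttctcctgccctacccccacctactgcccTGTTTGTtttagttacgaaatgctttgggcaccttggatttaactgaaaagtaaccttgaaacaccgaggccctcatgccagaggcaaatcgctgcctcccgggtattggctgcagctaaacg
The Foxa1 region held TGTTTAC on the opposite strand, at bases -141 to -135 from the start, and 2.58% of 32851 RefSeq promoter windows of the same 200 bases held it on either strand. The Foxa2 region held TGTTTGT at bases -173 to -167, as did 4.91% of all windows. Over the 9 start sites of the members, TGTTTGT also occurred at 1 Hnf4a site, where 38 of the 200 bases are Hnf4a exon. The GATA letters AGATAA occurred at 1 other Foxa2 site and in 8.42% of all windows. The nuclear receptor letters AGGTCA occurred at no member site and in 11.4% of all windows. These are matches of letters and do not show binding.

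Library depth was 20519702 to 23976914 counts in ESCs and NPs and 80704741 to 93210102 counts in TET TKO ESCs. Levels are given as RPKM, read counts divided by exon length and by library size after TMM scaling. A gene was called changed at an adjusted p under 0.001 (edgeR quasi-likelihood test, Benjamini-Hochberg adjustment over all genes tested) and a fold of at least 3. A gene was tested where any library of the comparison reached 1 RPKM. The targeted genes kept counts in TET TKO ESCs: Tet1 had 14731 to 17281 counts per library and a log2 fold change of -2.28 ± 0.14 (SE, adjusted p = 8.67e-05), and Tet2 3151 to 3375 counts and -2.94 ± 0.13 (adjusted p = 1.74e-05). Tet3 was under the RPKM minimum in both groups. Which part of each gene was removed is not given in the sources used here, so these gene counts do not check the deletion. The markers of the labelled cells were present: the summed RPKM of 7 pluripotency genes was 1300 to 1343 in ESCs, 720.3 to 891.7 in TET TKO ESCs and 5.37 to 9.58 in NPs, and that of 10 neural progenitor genes was 13.3 to 14.7 in ESCs and 265 to 481 in NPs. Of the pluripotency genes, Zfp42 was called lower in TET TKO ESCs, at -2.60 ± 0.16 (SE, adjusted p = 8.59e-05).

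NPs carried more Foxa1, Foxa2 and Gata6 mRNA than ESCs and less Hnf4a mRNA. With high expression set at log2(1 + mean RPKM) of at least 1, 1 of the 8 members was highly expressed in ESCs (Hnf4a), 6 in NPs (all except Hnf4a and Afp) and 1 in TET TKO ESCs (Dab2). In NPs against ESCs, 4 members were called higher (Gata6, Foxa1, Foxa2 and Ttr), 1 was called lower (Hnf4a), 2 were tested and not called (Gata4 and Dab2), and Afp was under the RPKM minimum. Of the 15197 genes tested, 12.4% were called higher and 9.98% lower. Gata4, Gata6, Foxa1, Foxa2 and Ttr passed the minimum only through their NP libraries and Hnf4a only through its ESC libraries, so these counts describe the 8 genes and add no support beyond each test. In the fit with no minimum all 8 could be tested, and 5 were called higher, Afp included, and 1 lower, where 8.51% of 31654 genes were called higher and 8.18% lower.

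**Figure D1:**
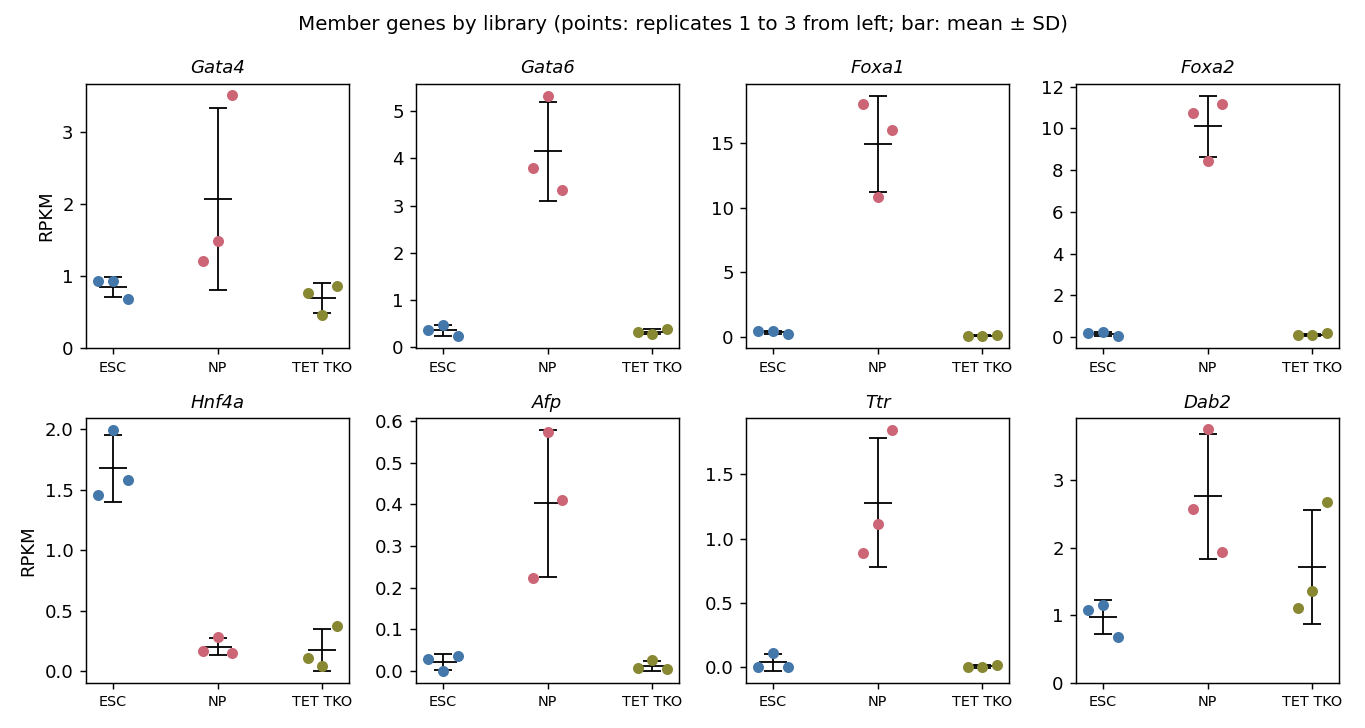
RPKM of each member (vertical axis, linear, own scale per panel) in ESC, NP and TET TKO libraries; points are replicates 1 to 3 from left to right, the wide bar is the mean and the whiskers are the SD of 3 libraries. The NP libraries lie above the ESC libraries for 7 genes and below them for Hnf4a, and Dab2 is the 1 gene whose NP and TET TKO libraries overlap at their higher level.

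Foxa1 and Foxa2 were low in ESCs and rose to mean levels above 10 RPKM in NPs. Foxa1 was at 0.452, 0.454 and 0.245 RPKM in ESC replicates 1 to 3 (85 counts in all) and at 18.0, 10.8 and 16.0 RPKM in NP replicates 1 to 3. Every NP library was above every ESC library, and replicate 2 was the lowest NP library. The mean rose from 0.384 ± 0.12 to 14.9 ± 3.7 RPKM (SD, n = 3), a log2 fold change of 5.29 ± 0.32 (SE, adjusted p = 3.78e-06, edgeR), or 39.1-fold.

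Foxa2 was at 0.218, 0.232 and 0.0515 RPKM in the ESC libraries and at 10.7, 8.42 and 11.1 RPKM in the NP libraries. The groups did not overlap, and NP replicate 2 was again the lowest. Its log2 fold change was 5.93 ± 0.42 (SE, adjusted p = 8.18e-06, edgeR), or 60.9-fold. By mean RPKM Foxa1 and Foxa2 stood at places 7 and 8 among the 44 Fox genes in NPs, behind Foxp4 at 96.8 RPKM, and at places 22 and 23 in ESCs. Leaving out any 1 library kept both calls, with log2 fold changes of 5.04 to 5.48 for Foxa1 and 5.47 to 6.24 for Foxa2.

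The third FOXA gene, Foxa3, a liver and gut factor, did not rise with them. It was at 0.908 RPKM in ESCs and 0.265 in NPs, with a log2 fold change of -1.75 and an adjusted p of 0.0104, and was not called. Profiles over the 9 libraries were compared as log2(CPM + 0.5) centred on each gene's mean, by Euclidean distance over 15482 genes. The genes nearest to Foxa1 were Rhbdl3 (distance 0.782), Pax2 (0.784) and Rfx4 (0.832). Those nearest to Foxa2 were Pcdhb22 (0.600), Ntn4 (0.650) and Gm15050 (0.806). Foxa1 and Foxa2 were 1.29 apart, and each was nearer to the other than to any other member.

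Gata6 was at 0.368, 0.459 and 0.229 RPKM in ESCs and at 3.79, 5.33 and 3.34 RPKM in NPs. All NP libraries were above all ESC libraries, and NP replicate 2, the lowest for Foxa1 and Foxa2, was the highest for Gata6. The log2 fold change was 3.56 ± 0.33 (SE, adjusted p = 3.25e-05, edgeR), or 11.8-fold, and leaving out any 1 library gave 3.32 to 3.79 and kept the call. The counting ignored strand, and 58 bases of Gata6 exon, 1.82%, are shared with the antisense gene 1010001N08Rik, which had 17 to 24 counts in NPs against 247 to 414 for Gata6.

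Gata4 was at 0.927, 0.938 and 0.688 RPKM in ESCs and at 1.21, 1.49 and 3.53 RPKM in NPs. The groups did not overlap, but NP replicate 3 was well above replicates 1 and 2. The log2 fold change of 1.30 ± 0.43 (SE, adjusted p = 0.0265, edgeR) was not called, and without NP replicate 3 it was 0.67. Nearest in profile to Gata4 were Gm9958 (distance 0.808), Zfp606 (0.841) and 4930578M01Rik (0.874), and nearest to Gata6 were Ndn (0.563), 4732490B19Rik (0.662) and Fgd3 (0.704).

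The other GATA genes are blood and trophoblast factors (Gata1, Gata2, Gata3) and the endoderm and heart factor Gata5. Gata5 had 1 count over the 3 ESC libraries and 618 over the 3 NP libraries, a ratio of 608 with an exact 95% counting interval of 109 to 24100. Gata3 rose by a log2 fold change of 4.09 ± 0.55 (SE, adjusted p = 2.48e-04), a call lost without ESC replicate 1 or NP replicate 1, at 4.17 and 4.11. Gata1 fell by 5.53 ± 0.63 (adjusted p = 1.04e-04), and Gata2 was at 3.81 ± 0.74 and not called (adjusted p = 0.00192). Among the 6 GATA genes, Gata6 had the highest mean RPKM in NPs, 4.15 ± 1.0, followed by Gata3 at 3.84, Gata2 at 2.97, Gata5 at 2.78 and Gata4 at 2.08. These 5 ranges overlapped between neighbours, so their order does not stand apart from the spread.

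Hnf4a moved the other way. It was at 1.46, 1.99 and 1.58 RPKM in ESCs and at 0.165, 0.281 and 0.152 RPKM in NPs, with no overlap. The log2 fold change was -3.06 ± 0.32 (SE, adjusted p = 6.22e-05, edgeR), or 8.37-fold lower, and leaving out any 1 library gave -3.40 to -2.89 and kept the call. With all 9 libraries in 1 fit the adjusted p was 0.00194 and the call was lost at the same log2 fold change.

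Ttr had 0, 3 and 0 counts in ESCs and 23, 33 and 52 counts in NPs, or 0.886, 1.11 and 1.84 RPKM. The NP to ESC ratio of counts scaled by library size was 35.4, with an exact 95% interval of 11.8 to 175 for counting error only. The gene was called (adjusted p = 8.63e-04, edgeR), but leaving out any 1 of the 6 libraries took the adjusted p to 0.0011 to 0.00448 and ended the call, with a fitted log2 fold change of 4.39 to 8.17. Afp had 2, 0 and 3 counts in ESCs and 16, 47 and 32 in NPs, or 0.223, 0.574 and 0.410 RPKM in NPs. In the fit with no minimum its log2 fold change was 4.11 ± 0.65 (SE, adjusted p = 5.01e-06, edgeR). Both secreted products were above their ESC libraries in all 3 NP libraries, at mean levels of 1.28 ± 0.50 RPKM for Ttr and 0.402 for Afp against 14.9 for Foxa1. Ttr shares 11 bases of exon, 0.902%, with the antisense gene Gm16090, which had 0 to 4 counts in NPs.

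Dab2 was at 1.08, 1.15 and 0.687 RPKM in ESCs and at 2.58, 3.77 and 1.95 RPKM in NPs. The groups did not overlap, and replicate 2 was the highest NP library. The log2 fold change of 1.50 ± 0.29 (SE, adjusted p = 0.00202, edgeR) missed both limits, at 2.83-fold, and was not called. Over the 8 members, 7 had every NP library above every ESC library and 1 had every NP library below, where 36.3% and 35.6% of all genes tested did so.

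**Figure D2:**
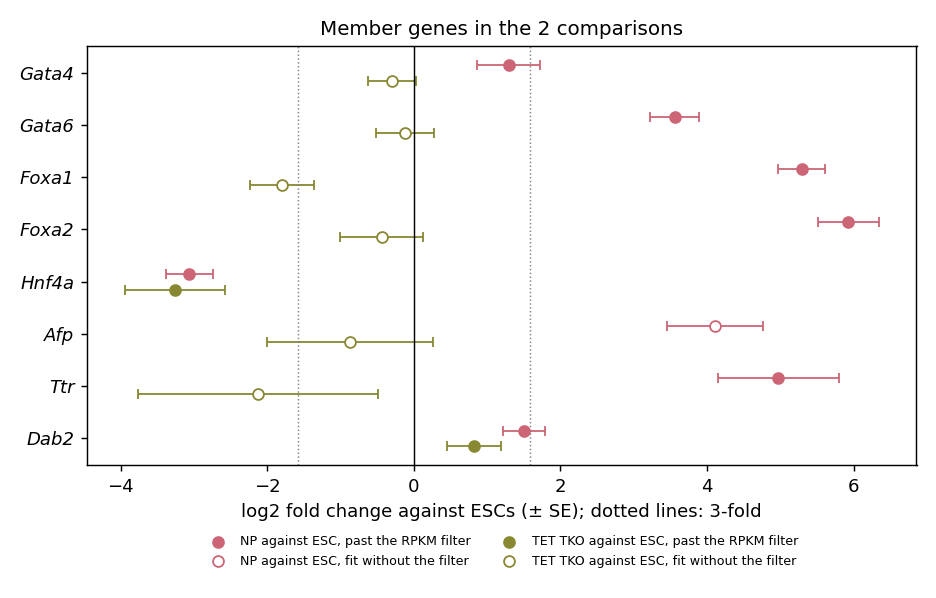
log2 fold change against ESCs (horizontal axis, ± SE) of each member in NPs and in TET TKO ESCs; filled points passed the RPKM minimum, open points come from the fit with no minimum, and dotted lines mark a fold of 3. Of the filled points, Foxa2, Foxa1, Ttr and Gata6 lie past the limit in NPs at 5.93, 5.29, 4.98 and 3.56, and Hnf4a lies near -3 in both comparisons. Open points past it are Afp in NPs at 4.11 and, in TET TKO ESCs, Foxa1 at -1.80 and Ttr at -2.13, the last from 3 ESC and 2 TET TKO counts.

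The endoderm genes that surround these regulators did not move as 1 block. Beside the list counts here and below stand the shares of all genes tested in NPs, 12.4% called higher and 9.98% lower. Many called list genes passed the RPKM minimum only through the group where they are high. These were NPs for Sox17, Lhx1, Prox1 and Onecut1, and ESCs for Amn, Eomes and Ahsg. The list counts and medians therefore describe the lists and add no support beyond each test. Of 20 primitive and visceral endoderm genes, 13 were tested in NPs, 4 were called higher and 1 lower, with a median log2 fold change of 0.35 against 0.04 for all genes tested. Sox17, an endoderm factor, rose from 0.12 to 3.83 ± 0.92 RPKM, a log2 fold change of 5.0 ± 0.41 (SE, adjusted p = 1.83e-05). Other called rises included the basement membrane collagens Col4a1 and Col4a2, at 2.07 and 3.39. Amn, a receptor subunit of visceral endoderm, fell by 3.04 ± 0.44 (SE, adjusted p = 3.93e-04), a call lost without any 1 library except NP replicate 2, at -3.23 to -2.73. Apoa4 had no counts in ESCs or NPs.

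Of 17 liver and gut endoderm genes, 9 were tested, 2 were called higher and 2 lower, with a median of -1.26. The pair that rose were Prox1, at a log2 fold change of 6.86 ± 0.43 (SE, adjusted p = 4.61e-06), and Onecut1, at 4.72 ± 0.53 (adjusted p = 8.91e-05). Both are liver and pancreas factors that are also made in neural progenitors and neurons. Ahsg, a secreted liver protein, fell by 4.44 ± 0.48 (SE, adjusted p = 8.00e-05). The secreted liver products of this list, which leaves out Ttr and Afp, were low in NPs, each at 0.331 RPKM or less. Of these, Alb was at 0.03 RPKM and Apoh had no counts, while Fgb and Fga, which code for fibrinogen chains, had 70 and 50 counts over the 3 NP libraries against 0 and 4 in ESCs, every NP library above every ESC library. With no minimum 4 genes of the list were called higher, Fgb (adjusted p = 1.71e-05, edgeR) and Fga (adjusted p = 7.35e-04) included.

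Of 8 genes of definitive endoderm and mesendoderm, 4 were tested, 2 were called higher and 1 lower. Lhx1 rose by 8.46 ± 0.28 (SE, adjusted p = 3.36e-07) to 24.8 RPKM, and Cxcr4 by 4.51 ± 0.38 (adjusted p = 2.02e-05) to 22.6 RPKM. Both are also made in the neural tube, Lhx1 in interneurons and Cxcr4 in migrating neurons. Eomes, the factor that starts definitive endoderm, fell by 3.56 ± 0.40 (SE, adjusted p = 9.71e-05). The remaining genes of the list were under 0.3 RPKM in NPs, among them Gsc at 0.16 and Mixl1 at 0.07, and Cer1 had no counts.

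Floor plate and ventral midline genes were split as well. Of 14 genes, 10 were tested, 4 were called higher and 1 lower, with a median log2 fold change of 1.05. The 4 called higher, Shh, Nkx6-1, Spon1 and Slit2, passed the RPKM minimum only through their NP libraries. Shh had 1 count over the ESC libraries and 413 over the NP libraries, a ratio of 407 with an exact 95% counting interval of 72.6 to 16100. It was at 1.45, 3.18 and 1.59 RPKM in NP replicates 1 to 3, highest in replicate 2, the library lowest for Foxa1 and Foxa2. Nkx6-1, a factor of the ventral neural tube, had 1 and 334 counts, a ratio of 329 with an interval of 58.6 to 13000.

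Spon1 and Slit2, which code for proteins secreted by the floor plate and are named here after their values were seen, rose by 5.97 ± 0.64 (SE, adjusted p = 7.47e-05) and 4.39 ± 0.28 (adjusted p = 5.18e-06). Nkx2-9, a factor next to the floor plate, fell by 2.44 ± 0.41 (SE, adjusted p = 8.74e-04), a call lost without any 1 library except NP replicate 2, at -2.67 to -2.20. The most abundant gene of the list, Ntn1, a secreted guidance protein, was at 20.8 RPKM in ESCs and 21.2 in NPs and was not called. Lmx1b, a factor of the midline and hindbrain, was at 0.718 and 2.44 RPKM with no overlap between the libraries, and its log2 fold change of 1.76 ± 0.38 (SE, adjusted p = 0.00349, edgeR) was not called, while DESeq2 called it (adjusted p = 5.33e-05). Sulf1, Foxj1 and Lmx1a, at 2.54, 1.30 and 0.901 RPKM in NPs, overlapped the ESC libraries. In NPs, 8 of the 14 genes had a mean of at least 1 RPKM, against 4 in ESCs, while Ferd3l had no counts, Corin was at 0.03 RPKM and Nkx2-2 at 0.09.

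Hedgehog targets were called in both directions, 1 higher and 1 lower of 5. Olig2, a motor neuron progenitor factor that needs Hedgehog signal, had 2 and 781 counts, a ratio of 384 with an interval of 106 to 3180. Of 5 notochord genes, Shh and the BMP antagonist Nog were called higher, Nog at 3.96 ± 0.39 (SE, adjusted p = 4.36e-05), while the notochord factor T was at 0.22 RPKM and Noto had no counts in NPs.

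**Figure D3:**
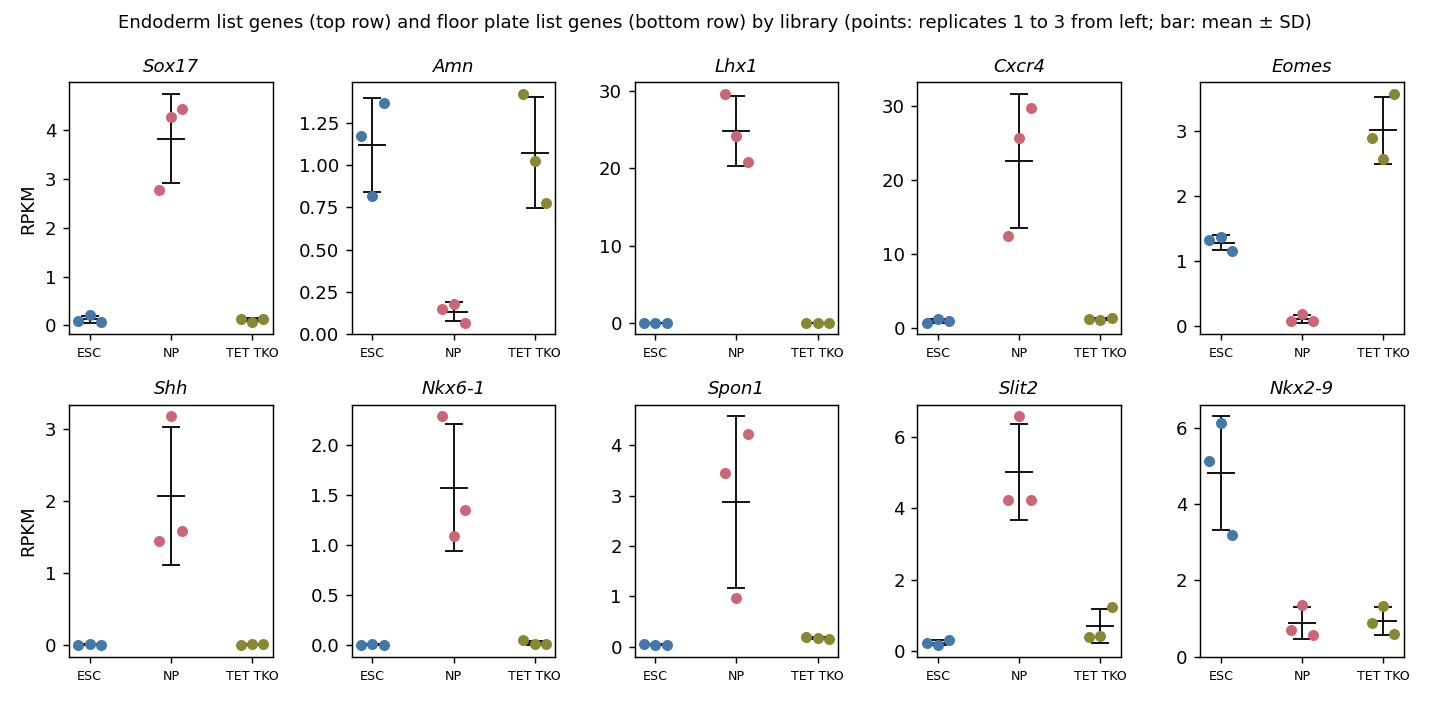
RPKM of 5 endoderm list genes (top) and 5 floor plate list genes (bottom) in ESC, NP and TET TKO libraries; points are replicates 1 to 3 from left to right, with the mean and SD of 3 libraries, on a linear axis with its own scale per panel. Sox17, Lhx1, Cxcr4, Shh, Nkx6-1, Spon1 and Slit2 are higher in the NP libraries, and Amn, Eomes and Nkx2-9 are lower.

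The other 42 forkhead genes give the family background of the FOXA rise. In NPs 31 were tested, 10 were called higher and 5 lower, with a median log2 fold change of 0.68, and leaving out 1 library gave 6 to 9 higher and 4 to 5 lower. Foxb1, a factor of the neural tube, had 2 counts in ESCs and 1665 in NPs, a ratio of 820 with an interval of 227 to 6770. Foxe3, a lens factor, had 0 and 93 counts and was at least 30.5-fold higher, against a floor of 3 counts over the ESC group, a call lost without any 1 library except NP replicate 2. Foxr1 fell by 4.68 ± 0.41 (SE, adjusted p = 2.47e-05), and Foxh1, a Nodal signal factor, fell by 4.54 ± 0.45 (adjusted p = 4.72e-05).

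Lists of other tissues in which the members act were read as well. Of 7 heart genes, 2 were tested and 0 were called higher by edgeR in NPs, both with an unadjusted p under 0.05, and DESeq2 called 1 higher. Hand2, a heart and neural crest factor, had 4 and 131 counts, with a log2 fold change of 4.90 ± 0.95 (SE, adjusted p = 0.00195, edgeR), and was the gene DESeq2 called. With no minimum 3 heart genes were called higher, Hand2, Isl1 (adjusted p = 2.40e-04, edgeR) and Tbx5 (adjusted p = 5.51e-04), the last 2 at 0.434 and 0.146 RPKM in NPs. Myh6, a heart myosin, fell by 2.92 ± 0.41 (SE, adjusted p = 3.25e-04), a call lost without any 1 of 4 libraries (ESC replicates 1 and 3, NP replicates 1 and 3), at -2.91 to -2.67. The 7 genes summed to 2.67 to 3.08 RPKM in ESCs and 1.41 to 3.06 in NPs. Of 6 choroid plexus genes, Clic6 rose by 3.85 ± 0.34 (SE, adjusted p = 2.37e-05), while Slc4a5 fell by 4.81 ± 0.35 (adjusted p = 9.43e-06) and Folr1 fell by 3.99 ± 0.47 (adjusted p = 1.26e-04). Kl had 1 count in NPs and Kcnj13 6, beside the 108 counts of Ttr.

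The NP libraries differed from each other in the markers as well as in the members. Replicate 2 was the lowest NP library for 9 of 10 neural progenitor genes and for 6 of 6 neuron genes. Neuron sums were 185, 77.6 and 147 RPKM in NP replicates 1 to 3, against 120.8 to 137 in ESCs. Tubb3 at 68.1 and Stmn2 at 56.1 RPKM made up most of the ESC sum, so this sum does not mark neurons alone. NP replicate 2 was also the lowest for Foxa1 and Foxa2 and the highest for Gata6, Afp, Hnf4a and Dab2. The primitive and visceral endoderm list summed to 304, 325 and 248 RPKM in NP replicates 1 to 3. The floor plate list summed to 44.0, 39.3 and 39.6 RPKM in the same NP libraries. Single genes that were not called weighed on these sums, Sparc at 58.9, 110 and 54.4 RPKM and Ntn1 at 23.9, 16.5 and 23.3 RPKM. Gene by gene, replicate 2 was highest for 7 and lowest for 2 of the 17 endoderm list genes above a minimum level. For the floor plate list it was highest for 5 and lowest for 4 of 10 such genes. With 3 libraries no relation between these values was tested, and their part in the member results was not tested. Without NP replicate 2 the log2 fold changes were 5.48 for Foxa1, 6.04 for Foxa2, 3.34 for Gata6 and -3.40 for Hnf4a, all called.

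**Figure D4:**
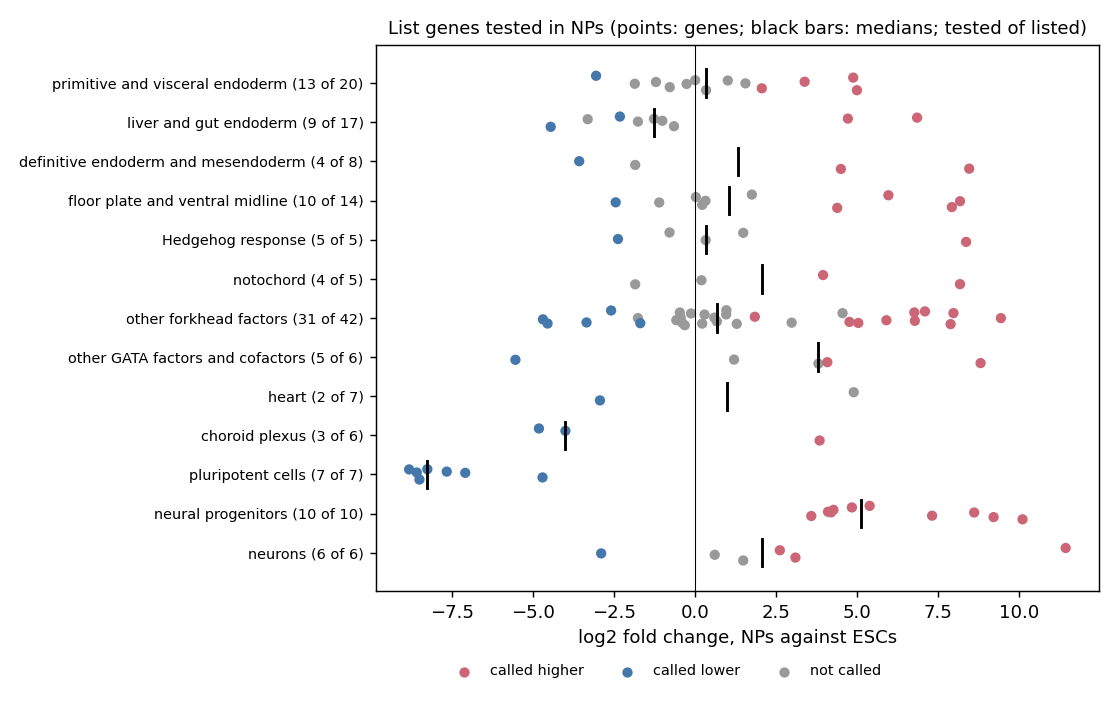
log2 fold change in NPs against ESCs (horizontal axis) of the tested genes of each list and marker set, with the number tested of the number listed beside each name; points are genes, coloured by call, and black bars are medians. Genes with almost no ESC counts sit far to the right, where the fitted value depends on the prior count, and endoderm and floor plate lists both span called rises and falls, with medians from -1.26 to 1.34.

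In TET TKO ESCs no FOXA or GATA member was above the ESC libraries. This comparison uses the same ESC libraries as the one above, so they are given side by side only. Of the 8 members, 2 passed the RPKM minimum, and edgeR called 0 of them in either direction, 1 with an unadjusted p under 0.05, where 2.31% of 13939 genes were called, 153 higher and 169 lower, or 99 and 191 with library sizes in place of TMM. DESeq2 called 1 lower, Hnf4a, where it called 3.40% of all genes lower. The median log2 fold change of all genes tested was 0.125, and -0.046 with library sizes in place of TMM.

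Hnf4a was at 0.107, 0.0435 and 0.370 RPKM in TET TKO replicates 1 to 3 against 1.46 to 1.99 in ESCs. The groups did not overlap, and replicate 3 was the highest. The log2 fold change was -3.26 ± 0.68 (SE, adjusted p = 0.00927, edgeR), against -3.06 in NPs, and was not called. Without TET TKO replicate 3 it was -4.46 with an adjusted p of 7.06e-04 and was called, and DESeq2 gave an adjusted p of 9.33e-07.

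Foxa1 had 31, 18 and 38 counts in TET TKO ESCs, or 0.121, 0.0758 and 0.132 RPKM, and all were under the ESC libraries. It was under the RPKM minimum, and the fit with no minimum gave -1.80 ± 0.44 (SE, adjusted p = 0.00426, edgeR), not called. Foxa2 had 16, 17 and 36 counts, 0.0875 to 0.176 RPKM, within the ESC range. Over the 8 members, 2 had every TET TKO library under every ESC library (Foxa1 and Hnf4a) and 0 had every one above, where 19.6% and 32.2% of all genes tested did so.

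Gata6 was at 0.272 to 0.381 RPKM and Gata4 at 0.463 to 0.861 RPKM in TET TKO ESCs, and both overlapped the ESC libraries. With no minimum their log2 fold changes were -0.12 ± 0.39 and -0.29 ± 0.33 (SE), with adjusted p of 0.851 and 0.617 (edgeR). Dab2 was at 1.11, 1.36 and 2.68 RPKM, overlapping ESCs at its low end. Its log2 fold change was 0.82 ± 0.37 (SE, adjusted p = 0.12, edgeR) and was not called. Afp had 2, 6 and 1 counts and Ttr 0, 0 and 2, so at this depth neither gene was distinguishable from ESCs.

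Among the list genes in TET TKO ESCs, edgeR called 1, the heart and trophoblast factor Hand1, which rose by 4.29 ± 0.44 (SE, adjusted p = 5.80e-04), a call lost without any 1 library except TET TKO replicate 3, at 4.02 to 4.77. Gata2 and Gata3 were at 3.34 ± 0.48 (adjusted p = 0.00206) and 3.14 ± 0.65 (adjusted p = 0.00892) and were not called by edgeR, while DESeq2 called both. In the other 9 lists, the cell markers aside, edgeR called 0 genes in either direction. The most abundant gene of each was Sparc at a log2 fold change of 0.29 for visceral endoderm, Hhex at 0.67 for liver and gut, Eomes at 1.23 for definitive endoderm, Ntn1 at -2.32 for floor plate, Gli1 at -0.51 for Hedgehog targets, Chrd at -0.55 for notochord, Foxh1 at 0.72 for forkhead factors, Zfpm1 at 0.52 for GATA factors and Folr1 at 0.02 for choroid plexus, which changed sign with the scaling. By unadjusted p under 0.05 the counts in those lists ran from 1 to 14 genes, and DESeq2 called 0 to 2.

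By level, NPs were highest for Gata4, Gata6, Foxa1, Foxa2, Afp, Ttr and Dab2, and ESCs for Hnf4a. ESCs and TET TKO ESCs overlapped for Gata4, Gata6, Foxa2, Afp, Ttr and Dab2, and NPs and TET TKO ESCs overlapped for Hnf4a and Dab2.

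The inserted fragments give another readout for motifs of these factors, the CpG methylation of a fragment with an intact motif (WT) against one with a scrambled motif (Sc). Fragments with the FOXA1 and the GATA motif were read in 3 pools that could be tied to 1 sample each, without replicates, and +SssI means that the fragments were methylated in vitro before insertion. Differences are WT minus Sc in percentage points, averaged over 23 CpGs with at least 10 reads in both, with a 95% interval from the median read numbers. Runs held WT and Sc unevenly, so the value within runs stands beside each. The intervals cover read counting only.

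For the FOXA1 motif the difference in ESC +SssI was -7.68 ± 7.1 points, and -1.20 within the 1 run that held both, over 5 CpGs. In NP -SssI, a cell type with Foxa1 and Foxa2 mRNA, it was 2.80 ± 4.7 points and 2.66 within runs, so WT at 89.1% and Sc at 86.3% did not differ beyond the interval. In TET TKO +SssI it was 0.54 ± 6.4 points and 0.64 within runs. The paper names FOXA1 among the factors that induce demethylation in NPs, from the NP +SssI condition. That pool was not used here, so the NP -SssI value does not bear on that result.

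For the GATA motif the difference was 5.15 ± 5.1 points in ESC +SssI and 2.07 within runs. In NP -SssI, with Gata6 and Gata4 mRNA, it was 2.53 ± 7.3 points and -0.27 within runs. In TET TKO +SssI it was -19.7 ± 12 points and -21.4 within runs, from medians of 70 WT and 141 Sc reads. No other pool of the 3 had WT below Sc by more than the interval for this motif. WT was at 66.92% in ESC +SssI and 69.65% in TET TKO +SssI, while Sc was at 61.77% and 89.35%. Between these pools the Sc level therefore differed more than the WT level.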

How the data were processed

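RNA of ESCs, NPs and TET TKO ESCs was made into libraries with a stranded mRNA kit and sequenced, 3 libraries per group. The authors deposited raw counts per gene, made with STAR (2.6.1b) and featureCounts (1.6.2) on GRCm38 with Ensembl 89 gene models, without regard to strand and not normalized, and, for the inserted fragments, read counts and methylated read counts for each CpG and run, from bisulfite reads aligned with Bismark (0.20.0) and deduplicated by UMI. Columns map to libraries by their names. Pools whose table serves 2 samples, ESC -SssI and NP +SssI, were not used here.

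From the counts, RPKM after TMM scaling were computed with edgeR (4.0.16, R 4.3.3), with exon lengths from the count tables. NPs and TET TKO ESCs were each compared with ESCs in a quasi-likelihood fit of 6 libraries. SE is the log2 fold change divided by the square root of F. Genes that reached 1 RPKM in any library of the comparison were tested. DESeq2 (1.42.0), other filters, limits and scalings, thinned TET TKO counts, a replicate block and each library left out were alternatives. On simulated counts with 200 changed genes, edgeR recovered 70% of changes of log2 2 and 90% of log2 3 in NPs against ESCs over 15197 genes, and 78% and 93% in TET TKO against ESCs over 13939 genes.

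Depth was 20519702 to 93210102 counts per library. Ratios for groups of 1 to 3 counts have exact Clopper-Pearson intervals (95%), and a group at 0 was set to 3 counts. The intervals cover counting error only. The members and gene lists were chosen with earlier results of these data known. Named were the 8 members, Tet1 to Tet3, the 2 called genes of each list that rose most and the 2 that fell most or, with none called, its most abundant gene, with some of these not reported here, and the 3 genes nearest in profile to each GATA and FOXA member. Col4a1, Col4a2, Spon1, Slit2, Gata2, Foxa3, Fga, Fgb, Lmx1b, Sulf1, Foxj1, Lmx1a, Hand2, Isl1, Tbx5, Zfp42 and genes given as low or absent were named after their values were seen, as were Ntn1 in NPs and Gata3 in TET TKO ESCs. Sequences came from RefSeq (GRCm38.p6).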

Additional observations from a re-analysis of the deposited data

How the results depend on the processing

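In NPs against ESCs, 4 members were called higher and 1 lower, and 1891 of all genes higher and 1517 lower. With at least 10 counts asked of every library, which leaves out genes near 0 in ESCs, 2 members and 7 list genes were called higher, against 27 list genes, and 842 of all genes lower. With no minimum 2588 genes were called lower. At an adjusted p under 0.05 and a fold of 2, 3308 were called higher and 2910 lower. With all 3 groups in 1 fit 0 members were called lower, since Hnf4a missed the p limit, and the cause was not tested. Leaving out 1 library left 3 members called higher, Ttr being the call lost, and 1 lower.

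In TET TKO ESCs the main counts over all genes were 153 higher and 169 lower, a share of 47.5% higher. They were 446 and 474 with DESeq2, 574 and 689 with no minimum, 1239 and 940 at the looser limits, and 99 and 191 with library sizes in place of TMM, a share of 34.1% higher. Leaving out 1 library gave 14 to 161 higher and 36 to 168 lower, with the lowest counts without ESC replicate 1. Members called lower were 1 (Hnf4a) with DESeq2, with no minimum and at the looser limits, and 0 to 1 with 1 library left out. List genes called, 1 higher and 0 lower, were 5 and 3 with DESeq2, 5 and 3 with no minimum, 11 and 7 at the looser limits, and 0 to 1 higher with 1 library left out. The log2 fold change of Folr1, 0.02, was -0.03 with DESeq2, -0.02 with TET TKO counts thinned to the ESC depth, -0.16 without TMM, -0.05 under the replicate block and -0.41 to 0.26 with 1 library left out, so its sign is not settled. The cause of these shifts was not tested.

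With replicate numbers as a block, NPs gave 1887 genes higher and 1528 lower with 4 members higher and 1 lower, and TET TKO ESCs gave 342 and 332 with 0 members and 2 list genes each way. Deviations of same-numbered libraries correlated at -0.17 to 0.00 in NPs and -0.12 to 0.45 in TET TKO ESCs, and not every library correlated best with its own number, so the numbers were not taken as pairs.

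Members highly expressed, 1 in ESCs and 1 in TET TKO ESCs, were 5 and 3 by CPM without division by gene length and 3 and 2 at an RPKM of at least 0.5. The methylation differences moved by less than their intervals with at least 20 reads per CpG, within runs and over all CpGs together. In ESC +SssI both differences were beyond their intervals in the main setting. Within runs they fell inside those intervals, at -1.20 for FOXA1 and 2.07 for GATA, so a difference there depends on the setting. Depth limits Afp and Ttr, at 0 to 6 counts per library outside NPs, and 3 libraries per group limit the precision of every fold change.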
